A study of Mus musculus with 3 samples.

Results

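The genes described here are 35 components of the RAS-ERK pathway, the relay that carries a growth factor signal from the cell membrane to the nucleus. They were chosen by symbol from the 32285 genes listed for 3 single-cell RNA-seq libraries, and all 35 were found. Feedback targets of the pathway were not among them. The libraries came from mouse embryonic stem cells of the line E14tg2a with the genotype Fgf4 -/-, first grown in medium with LIF. Cells of 1 library each received 0, 5 or 50 ng/ml FGF4 for 24 h in N2B27, a serum-free medium, and all 3 also received Chiron, an inhibitor of the kinase GSK3, and 1 μg/ml heparin, a cofactor of FGF. Each dose was 1 library, so no test between doses was possible, and every interval below covers counting error only. Cells of 1 library are not replicates of a dose.

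Binding of FGF to its receptor leads to phosphorylation of the docking proteins FRS2 and FRS3, which recruit the adaptor GRB2, the adaptor GAB1, the phosphatase SHP2 (Ptpn11) and the exchange factors SOS1 and SOS2. SOS proteins load RAS GTPases with GTP, RAS activates RAF kinases, and RAF activates the MEK kinases, which activate ERK. GTPase-activating proteins such as NF1 and RASA1 switch RAS off. Active ERK phosphorylates the RSK kinases and transcription factors, and it relieves repression by CIC and ERF. In mouse embryonic stem cells, FGF4 acting through ERK is known for promoting exit from naive pluripotency and primitive endoderm differentiation. Much of this control acts on proteins, which were not measured here.

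At 0, 5 and 50 ng/ml the libraries held 373, 874 and 975 cells, with 42726514, 75184072 and 81409975 unique molecular identifiers (UMIs), each standing for 1 captured molecule. Median UMIs per cell were 107873, 91763.5 and 87334, the median mitochondrial share of UMIs was 5.30%, 5.36% and 5.68%, and 0 cell barcodes were shared between libraries. The 8 embryonic stem cell markers summed to 4827, 4735 and 4539 counts per 1000000 UMIs (CPM), of which Dppa5a alone gave 3286, 2802 and 2648. Single markers differed by dose in both directions, as Nanog at 280, 150 and 103 CPM, Utf1 at 45.5, 281 and 354 CPM, Tdgf1 at 81.6, 174 and 216 CPM and Pou5f1 at 203, 387 and 379 CPM, and their part in the results below was not tested. The 8 fibroblast markers summed to 2.41, 2.86 and 3.01 CPM and 6 primitive endoderm markers to 2.29, 1.49 and 3.78 CPM. All 14 of the fibroblast and primitive endoderm markers were below 5 CPM at every dose, and the fibroblast genes Col3a1 and Postn were at 0. Transcripts assigned to Fgf4 itself were counted at 51.7, 24.9 and 20.4 CPM, and since the sources used here do not give the deleted stretch, these 3' tags do not check the genotype.

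Summed over the 35 genes, the pathway took nearly the same share of all UMIs at every dose. The sum was 1026, 1027 and 1042 CPM at 0, 5 and 50 ng/ml, which is 1.01-fold (95% counting interval 1.00 to 1.03) between 50 and 0 ng/ml. Of the 35 genes, 31 reached 5 CPM in at least 1 library of the comparison and were read for fold differences between 50 and 0 ng/ml. The other 4 were Frs3, Sos2, Rps6ka4 and Elk3. A difference of at least 1.5-fold was counted. Between 50 and 0 ng/ml, 1 of the 31 genes (Braf) was higher by that much and 2 (Mras and Ksr1) were lower, where 5.6% of all 9439 genes read were higher and 8.89% were lower. The 3 genes make up 9.68% of the 31, near the 14.5% of all genes past 1.5-fold in either direction. Here Mras and Ksr1, at 4.45 and 2.38 CPM at 50 ng/ml, were read only because they passed 5 CPM without FGF4. When each cell was given equal weight, 1 gene was higher and 4 were lower, with Cic and Sos1 added, where 4.74% of all 9404 genes then read were higher and 10.4% were lower. These 5 of 31 genes are 16.1%, near the 15.2% of all genes in either direction. Equal weight counts cells of low depth in full, and the fewest UMIs in a cell were 3294, 986 and 926 at 0, 5 and 50 ng/ml. A filter on cells by mitochondrial share and depth kept 359, 706 and 798 cells. With it, and without equal weight, the genes past 1.5-fold were again Braf, Mras and Ksr1, where 14.8% of all genes were.

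Between 5 and 0 ng/ml, 1 of 31 genes was higher and 2 were lower, again Braf, Mras and Ksr1, where 5% of all 9460 genes were higher and 6.04% were lower. Both comparisons share the library without FGF4. Between 50 and 5 ng/ml, 0 of 30 genes were past 1.5-fold, where 0.435% of 9192 genes were higher and 0.577% were lower. The median log2 ratio of the genes read was -0.04 between 50 and 0 ng/ml against -0.01 over all genes, -0.01 between 5 and 0 ng/ml against 0.02, and -0.02 between 50 and 5 ng/ml against -0.02. The middle 50% of the pathway genes lay between -0.30 and 0.18 on the log2 scale for 50 against 0 ng/ml, and that of all genes between -0.23 and 0.19. As a set these components thus lay about as close to even as genes at large.

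**Figure D1:**
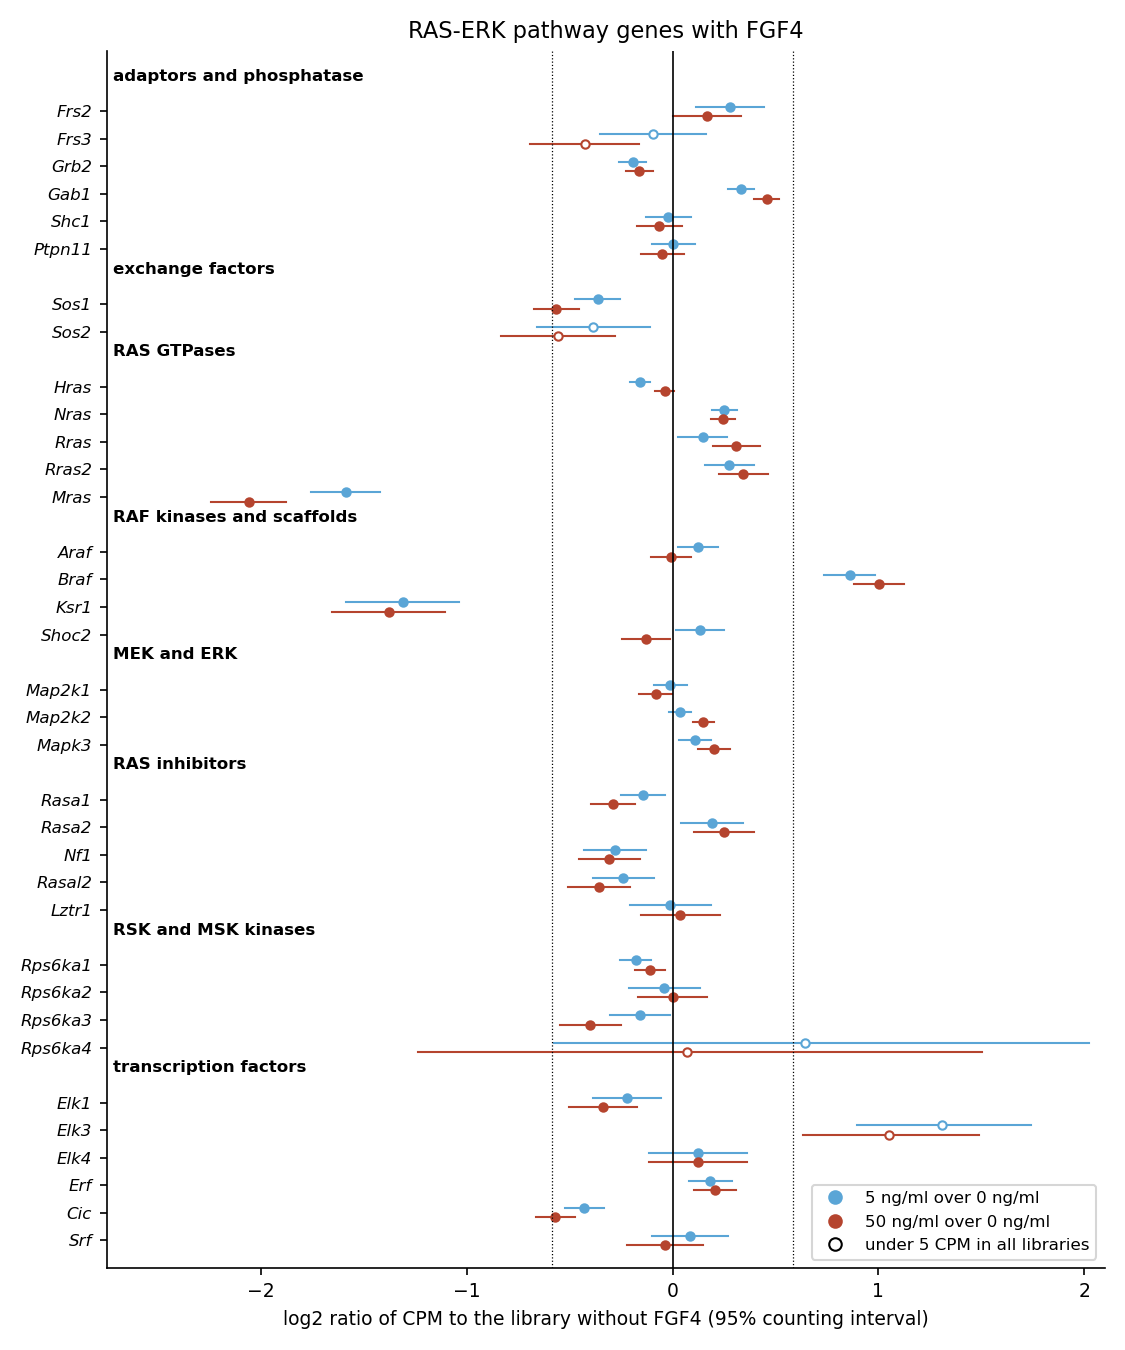
log2 ratio of CPM to the library without FGF4 for each of the 35 genes, ordered by role, at 5 ng/ml (blue) and 50 ng/ml (red), with 95% counting intervals as bars, 1 library per dose, open circles for genes under 5 CPM in all libraries and dotted lines at 1.5-fold. Mras lies furthest to the left, at -2.06 for 50 ng/ml, Ksr1 is also left of the dotted line, and Braf, at 1.00, is the only filled point right of it, while Cic and Sos1 at 50 ng/ml touch the line.

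**Figure D2:**
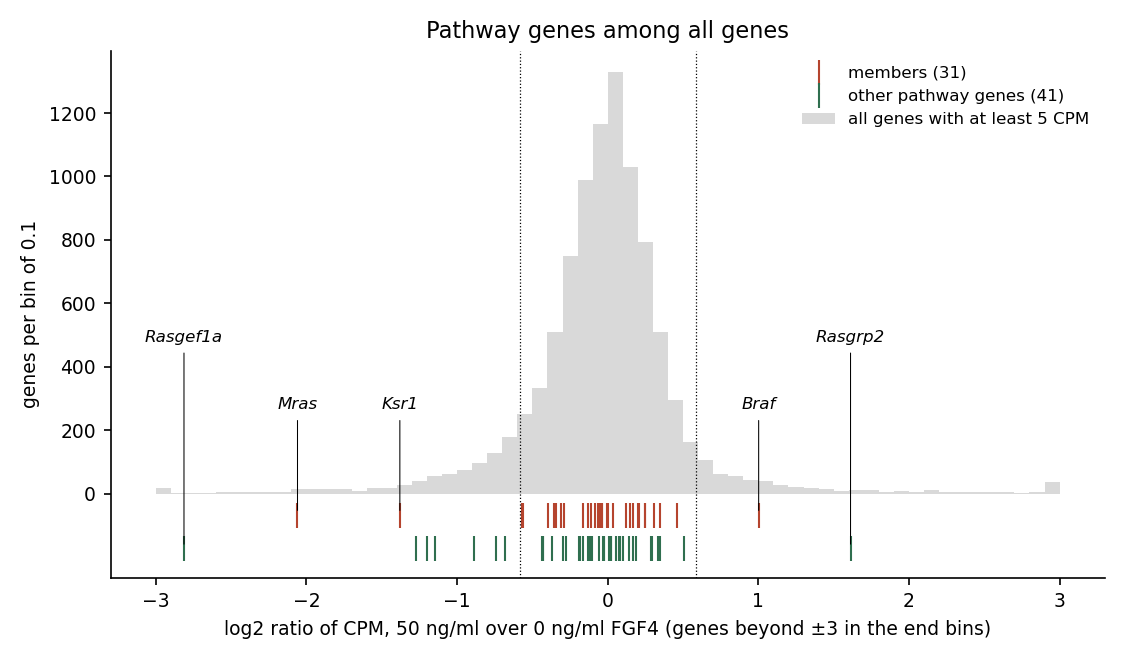
Histogram of log2 ratios of CPM, 50 over 0 ng/ml FGF4, over the 9439 genes read, with genes beyond 3 in either direction placed in the end bins, dotted lines at 1.5-fold, and marks beneath for the 31 components read (upper row) and 41 other pathway genes (lower row). Most marks lie between the dotted lines, with Mras at -2.06 and Braf at 1.00 outside them.

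The genes past 1.5-fold were 1 RAS (Mras), 1 RAF (Braf) and 1 scaffold (Ksr1), a share near that of all genes, and Sos1 and Cic lay just inside the line. The promoters of Mras, Ksr1 and Braf are printed here because these are the 3 genes past 1.5-fold. Each sequence runs 5′ to 3′ on the gene's strand from 250 bases before to 50 bases after a RefSeq start (GRCm38.p6, the assembly also called mm10), and capitals mark CG dinucleotides for Mras and Ksr1. The first lies at chr9:99436663-99436962 and the second at chr11:79146424-79146723, both on the minus strand.
Mras: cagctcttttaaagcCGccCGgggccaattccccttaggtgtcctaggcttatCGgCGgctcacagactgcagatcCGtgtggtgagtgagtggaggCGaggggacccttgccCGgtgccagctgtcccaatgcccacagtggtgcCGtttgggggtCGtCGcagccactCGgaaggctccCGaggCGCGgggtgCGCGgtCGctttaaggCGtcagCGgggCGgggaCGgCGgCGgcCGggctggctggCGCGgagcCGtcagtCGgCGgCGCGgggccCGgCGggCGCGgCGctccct
Ksr1: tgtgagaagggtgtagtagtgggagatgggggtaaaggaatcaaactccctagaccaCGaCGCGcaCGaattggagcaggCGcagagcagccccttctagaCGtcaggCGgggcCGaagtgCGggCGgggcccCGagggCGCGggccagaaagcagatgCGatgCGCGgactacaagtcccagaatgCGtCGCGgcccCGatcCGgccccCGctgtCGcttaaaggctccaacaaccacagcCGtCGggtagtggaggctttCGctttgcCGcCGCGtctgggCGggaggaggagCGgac
For Braf, at chr6:39725414-39725713 on the minus strand, capitals mark matches to the cAMP response element TGACGTCA. It was searched after this sequence had been read. For Srf, at chr17:46556113-46556412 on the minus strand, they mark an ETS core (CCGGAA) and CArG boxes, the element that serum response factor itself binds. The Srf promoter is printed because it alone among the members held a CArG box, and Srf stayed level.
Braf: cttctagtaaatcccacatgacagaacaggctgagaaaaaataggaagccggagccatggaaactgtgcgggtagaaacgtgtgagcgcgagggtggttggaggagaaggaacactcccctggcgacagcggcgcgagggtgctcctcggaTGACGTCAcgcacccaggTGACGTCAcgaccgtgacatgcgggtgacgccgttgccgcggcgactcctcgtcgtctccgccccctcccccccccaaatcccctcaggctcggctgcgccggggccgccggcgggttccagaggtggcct
Srf: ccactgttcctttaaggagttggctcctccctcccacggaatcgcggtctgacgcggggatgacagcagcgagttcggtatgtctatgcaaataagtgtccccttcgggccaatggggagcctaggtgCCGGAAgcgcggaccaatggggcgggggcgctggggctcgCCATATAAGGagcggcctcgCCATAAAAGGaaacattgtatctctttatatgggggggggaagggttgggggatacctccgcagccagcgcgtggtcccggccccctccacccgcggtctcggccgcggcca

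The windows printed for Mras, Ksr1 and Braf held 36, 31 and 30 CG dinucleotides. RefSeq gives Ksr1 another start, whose window at chr11:79059787-79060086 on the minus strand held 4 CG dinucleotides and an AP-1 site at -230. The first transcribed bases at that second start were found in a GENCODE transcript of Ksr1, and those at the start printed were not. The 45 RefSeq windows that matched 33 of the 35 genes had a median of 26, against 7 over all 32851 promoters in the table, so a high density was usual among the members' windows. Rps6ka3 and Mapk3 had no entry. Braf held 2 matches to the cAMP response element, at -99 and -81 from the start, and Srf held CArG boxes at -82 and -62 and an ETS core at -122. In all, 5 motifs were searched on both strands, and 0 of the 22 matches in members overlapped a match to another motif. The ETS core CCGGAA, bound by ETS factors that ERK regulates, was in 12 of 45 member promoters (26.7%) and in 14.9% of all. The AP-1 site TGANTCA was in 3 (6.67%) against 7.81%, the cAMP response element in 2 (4.44%) against 1.79%, the CArG box in 1 (2.22%) against 1.63%, and the CIC octamers TGAATGAA, TGAATGGA, TCAATGAA and TCAATGGA in 1 (2.22%) against 3.84%. The ETS core and the cAMP response element hold a CG dinucleotide, which the other motifs lack. The members' windows were richer in CG than all promoters (median 26 against 7), and the shares were not matched for this. None of these 5 motifs had a match in the Mras window or in the Ksr1 window printed. A match is a description of the letters and not a binding site.

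Among the adaptors, Gab1 was higher with FGF4, Frs3 was lower at 50 ng/ml, and all 6 genes stayed within 1.5-fold. Gab1 (ENSMUSG00000031714), which docks SHP2 and the kinase PI3K, was at 72.6, 91.4 and 99.7 CPM at the 3 doses in rising order. It was 1.37-fold higher at 50 than at 0 ng/ml (1.32 to 1.43), 1.26-fold higher at 5 than at 0 ng/ml (1.21 to 1.31) and 1.09-fold higher at 50 than at 5 ng/ml (1.06 to 1.13). These differences exceed counting error but lie below 1.5-fold. Grb2, the adaptor that brings SOS to the receptor complex, was at 72.0, 63.0 and 64.4 CPM. Shc1, another adaptor, was at 25.6, 25.3 and 24.5 CPM, and Ptpn11 was at 27.5, 27.5 and 26.6 CPM. Frs2 was at 10.6, 12.8 and 11.8 CPM, and its close relative Frs3 was at 4.77, 4.47 and 3.55 CPM. Frs2 was 1.21-fold higher at 5 than at 0 ng/ml (1.08 to 1.36), and Frs3, which is under 5 CPM, was 1.34-fold lower at 50 than at 0 ng/ml (1.12 to 1.61). Frs3 overlaps Frs3os on the other strand by 2026 bases, and Frs3os was at 2.15, 1.76 and 1.33 CPM. The strand setting is not known here. Frs2 made up 68.9%, 74.1% and 76.9% of the UMIs of the 2 docking genes. The 6 genes together came to 213, 224 and 231 CPM.

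Both SOS exchange factors were lower with FGF4, in nearly the same proportion. Sos1 was at 28.3, 22 and 19.1 CPM at 0, 5 and 50 ng/ml, and Sos2 was at 4.52, 3.46 and 3.07 CPM. Sos1 was 1.48-fold lower at 50 than at 0 ng/ml (1.37 to 1.60) and 1.29-fold lower at 5 than at 0 ng/ml (1.19 to 1.39), just inside the 1.5-fold line. With equal weight to each cell it was 1.55-fold lower at 50 than at 0 ng/ml. Sos1 held 86.2%, 86.4% and 86.2% of SOS transcripts, so the balance of the 2 genes was even across doses. Their sum was 32.8, 25.4 and 22.2 CPM, the role with the ratio furthest from 1 of the 8 compared (0.676 between 50 and 0 ng/ml).

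In the RAS family, the transcripts of Mras were far lower with FGF4 while the total was level. MRAS forms a complex with SHOC2 and the phosphatase PP1 that removes an inhibitory phosphate from RAF. Mras (ENSMUSG00000032470, mm10 chr9:99385420-99437381, minus strand) had 792, 464 and 362 UMIs, in rising order of dose. These were 18.5 CPM (17.3 to 19.9), 6.17 CPM (5.62 to 6.76) and 4.45 CPM (4.00 to 4.93), and no interval overlapped another. Mras was 4.17-fold lower at 50 than at 0 ng/ml (3.68 to 4.73), 3.00-fold lower at 5 than at 0 ng/ml (2.67 to 3.38) and 1.39-fold lower at 50 than at 5 ng/ml (1.21 to 1.60). Most of the difference was thus already present at 5 ng/ml, and the further step to 50 ng/ml was small. Only 0.551% of the 9439 genes read had a lower ratio between 50 and 0 ng/ml. At 50 ng/ml Mras was below 5 CPM, so in that comparison it was read only through the library without FGF4. The intervals hold no spread between cultures.

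Hras was the most abundant of the 5 RAS genes by tags, at 129, 116 and 126 CPM, followed by Nras at 74.2, 88.3 and 87.9 CPM. With this 3' method 1 tag was read per molecule, so levels were not divided by gene length. Nras was 1.18-fold higher at 50 than at 0 ng/ml (1.14 to 1.24). Rras, an R-RAS GTPase linked to cell adhesion, was at 20.7, 22.9 and 25.7 CPM, 1.24-fold higher at 50 than at 0 ng/ml (1.15 to 1.34) and 1.12-fold higher at 50 than at 5 ng/ml (1.05 to 1.2). Rras2 was at 19.4, 23.6 and 24.7 CPM, 1.27-fold higher at 50 than at 0 ng/ml (1.17 to 1.38). With FGF4, Mras stood well below Rras and Rras2 in level, and without it the 3 lay close together. Mras took 7.07% (6.60 to 7.56), 2.40% (2.19 to 2.63) and 1.66% (1.49 to 1.83) of the UMIs of the 5 genes at 0, 5 and 50 ng/ml. The sum of the 5 was 262, 257 and 269 CPM.

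**Figure D3:**
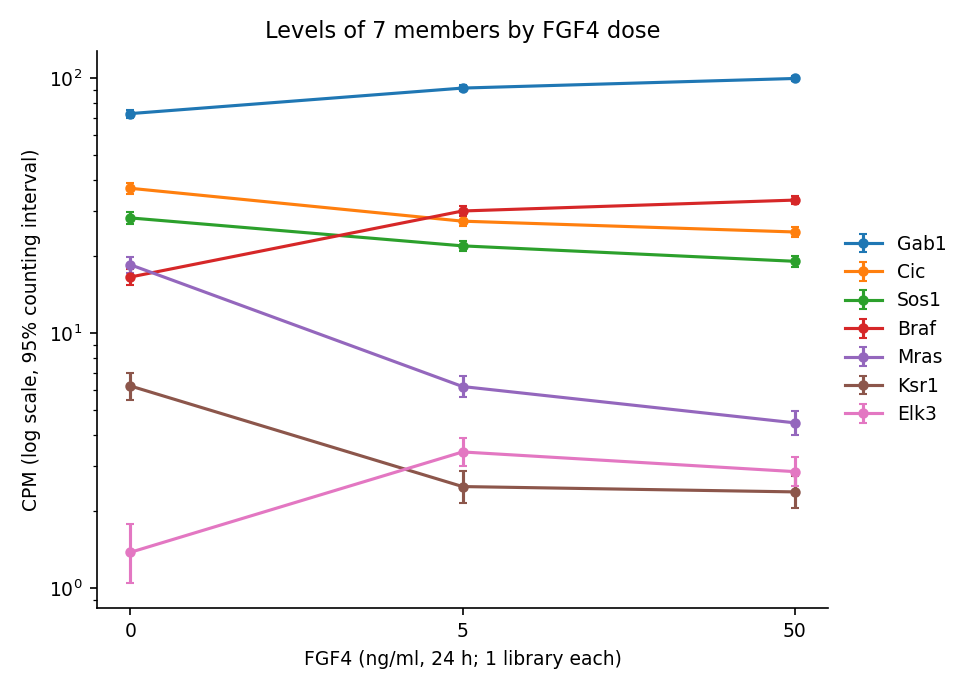
CPM (log scale) of 7 pathway genes at 0, 5 and 50 ng/ml FGF4, with exact 95% Poisson intervals as bars, 1 library per dose and lines drawn to guide the eye. For Braf, Mras, Ksr1 and Elk3 the steep part lies between 0 and 5 ng/ml, and the lines of Braf and Mras, apart at 33.2 and 4.45 CPM at 50 ng/ml, start close at 16.6 and 18.5 CPM without FGF4.

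Of the 2 RAF kinases listed, Braf was higher with FGF4 and Araf was near its level without it. BRAF is the RAF with the highest basal kinase activity. Braf (ENSMUSG00000002413, mm10 chr6:39603237-39725463, minus strand) had 709, 2265 and 2706 UMIs at 0, 5 and 50 ng/ml, which were 16.6 CPM (15.4 to 17.9), 30.1 CPM (28.9 to 31.4) and 33.2 CPM (32.0 to 34.5). It was 2.0-fold higher at 50 than at 0 ng/ml (1.84 to 2.18), 1.82-fold higher at 5 than at 0 ng/ml (1.67 to 1.98) and 1.10-fold higher at 50 than at 5 ng/ml (1.04 to 1.17). Of all genes read, 2.63% had a higher ratio between 50 and 0 ng/ml. Araf was at 30.6, 33.4 and 30.5 CPM. Braf accordingly held 35.2% (33.1 to 37.3), 47.5% (46.0 to 48.9) and 52.2% (50.8 to 53.5) of the UMIs of the 2 genes at 0, 5 and 50 ng/ml. At 50 ng/ml slightly more tags came from Braf than from Araf, and without FGF4 fewer. Braf overlaps Ndufb2 on the other strand by 146 bases, and the sources used here do not say how strand was used in counting. Ndufb2 itself was at 151, 150 and 146 CPM.

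The scaffold Ksr1 was lower with FGF4. KSR1 brings RAF, MEK and ERK together. Ksr1 (ENSMUSG00000018334, mm10 chr11:79013440-79146407, minus strand) had 265, 188 and 194 UMIs, in rising order of dose, which were 6.20 CPM (5.48 to 7.0), 2.5 CPM (2.16 to 2.88) and 2.38 CPM (2.06 to 2.74). It was 2.60-fold lower at 50 than at 0 ng/ml (2.15 to 3.15) and 2.48-fold lower at 5 than at 0 ng/ml (2.05 to 3.01). The levels at 50 and 5 ng/ml did not differ beyond counting error, with a ratio of 0.953 (0.776 to 1.17). The gene was rare at every dose, and it was read only because it passed 5 CPM without FGF4. Shoc2, the partner of MRAS, was at 21.6, 23.7 and 19.8 CPM, 1.2-fold lower at 50 than at 5 ng/ml (1.12 to 1.28) and 1.09-fold lower at 50 than at 0 ng/ml (1.01 to 1.19). It overlaps Bbip1 on the other strand by 322 bases, and Bbip1 was at 18.0, 24.5 and 22.5 CPM. Mras and Shoc2, whose proteins share a complex, therefore differed widely in their ratios.

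**Figure D4:**
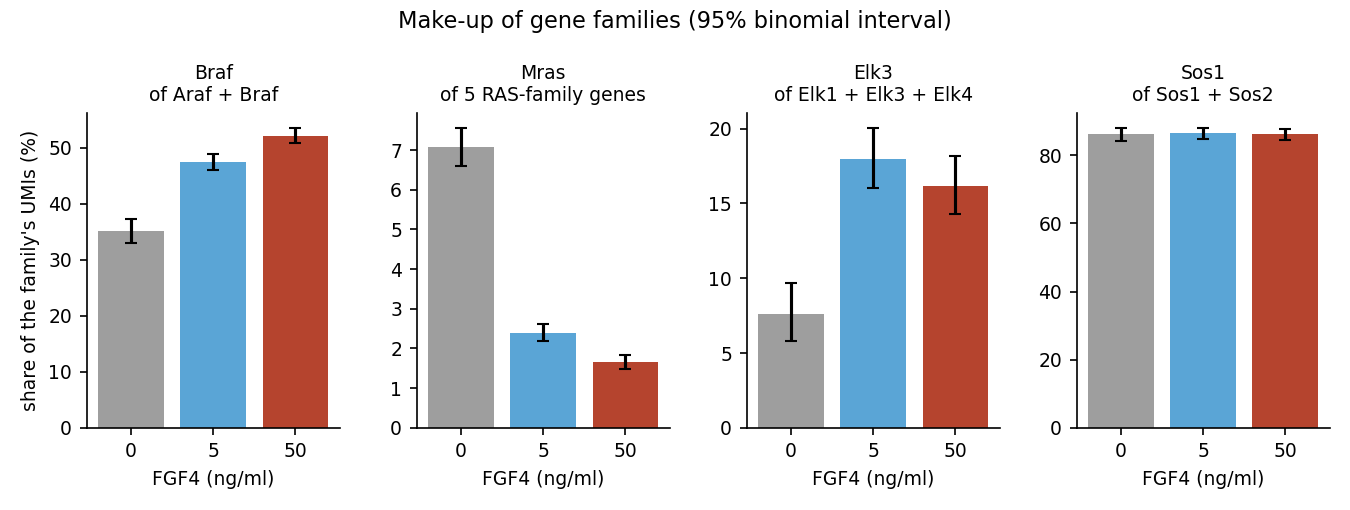
Share of the UMIs of a gene family (%) taken by Braf, Mras, Elk3 and Sos1, in 4 panels with their own axes from 0, by FGF4 dose, with exact 95% binomial intervals as bars and 1 library per dose. The share of Braf was 52.2% at 50 ng/ml and that of Mras 1.66%, while Sos1 stayed at 86.2% to 86.4% of SOS transcripts.

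The kinases at the core of the cascade were close to level. Map2k1, which encodes MEK1, was at 45.1, 44.7 and 42.6 CPM, and Map2k2, which encodes MEK2, was at 104, 107 and 116 CPM. Mapk3, which encodes ERK1, was at 45.5, 49.1 and 52.4 CPM and was 1.15-fold higher at 50 than at 0 ng/ml (1.09 to 1.21). Map2k2 held 69.8%, 70.5% and 73.1% of MEK transcripts. The 3 genes together came to 195, 201 and 211 CPM.

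The 5 genes that restrain RAS were also within 1.5-fold. Rasa1, the founding RAS GTPase-activating protein, was at 28.1, 25.4 and 23.0 CPM, and Nf1, which encodes neurofibromin, was at 14.4, 11.9 and 11.6 CPM. Rasal2 was at 14.2, 12.1 and 11.1 CPM, while Rasa2 was at 12.8, 14.7 and 15.3 CPM. Between 50 and 0 ng/ml, Rasa1, Nf1 and Rasal2 were 1.22-fold, 1.24-fold and 1.28-fold lower, and Rasa2 was 1.19-fold higher, each beyond counting error. Rasa1 overlaps Ccnh on the other strand by 8690 bases, and the strand setting is not known here. Ccnh was at 52.5, 63.5 and 65.1 CPM. Lztr1, an adaptor for the ubiquitination of RAS proteins, was at 7.96, 7.90 and 8.16 CPM. Summed, the 5 were 0.892-fold at 50 relative to 0 ng/ml (0.854 to 0.932).

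Downstream of ERK, the RSK kinase genes among the members were within 1.5-fold, and Rps6ka3 lay furthest from even between 50 and 0 ng/ml. Rps6ka1 (RSK1) was at 55.7, 49.2 and 51.6 CPM, 1.13-fold lower at 5 than at 0 ng/ml (1.08 to 1.19). Rps6ka2 (RSK3) was at 10.4, 10.1 and 10.4 CPM. Rps6ka3 (RSK2) was at 14.4, 12.9 and 10.9 CPM, 1.32-fold lower at 50 than at 0 ng/ml (1.19 to 1.46) and 1.18-fold lower at 50 than at 5 ng/ml (1.08 to 1.30). Rps6ka4, which encodes the related kinase MSK2, had 8, 22 and 16 UMIs, too few to compare.

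Of the transcription factors, the repressor Cic was lower with FGF4 and the repressor Erf slightly higher. CIC is a repressor that ERK inactivates, and its targets include genes of the Etv family. Cic was at 37.0, 27.5 and 24.9 CPM at 0, 5 and 50 ng/ml, 1.48-fold lower at 50 than at 0 ng/ml (1.39 to 1.59) and 1.35-fold lower at 5 than at 0 ng/ml (1.26 to 1.44). Like Sos1 it lies just inside the line. It was 1.59-fold lower at 50 than at 0 ng/ml with equal weight to each cell, and 1.50-fold lower with mitochondrial and ribosomal protein genes left out of the total. Erf, an ETS repressor that ERK exports from the nucleus, was at 26.4, 29.9 and 30.4 CPM, 1.15-fold higher at 50 than at 0 ng/ml (1.07 to 1.24). Cic and Erf are neighbours on chromosome 7, 16.9 kb apart with 0 genes between them, and their ratios lay on opposite sides of 1.

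The ternary complex factors, which bind DNA together with serum response factor, differed among themselves. Elk1 was at 11.7, 10.0 and 9.22 CPM, 1.27-fold lower at 50 than at 0 ng/ml (1.13 to 1.42), and it shares 8887 bases of its strand with Uxt, so reads may be split between them. Elk4 was at 5.17, 5.63 and 5.63 CPM. Elk3, which represses transcription until ERK phosphorylates it, had 59, 257 and 233 UMIs, equal to 1.38 CPM (1.05 to 1.78), 3.42 CPM (3.01 to 3.86) and 2.86 CPM (2.51 to 3.25). It was 2.07-fold higher at 50 than at 0 ng/ml (1.55 to 2.81) and 2.48-fold higher at 5 than at 0 ng/ml (1.86 to 3.34). It stayed below 5 CPM and is therefore not among the genes counted above. Elk3 overlaps Cdk17 on the other strand by 19658 bases, and Cdk17 was at 14.1, 15.8 and 15.1 CPM, so a share of its tags cannot be told apart without the strand setting. Elk3 took 7.57%, 17.9% and 16.2% of the UMIs of the 3 factors, and Elk1 64.1%, 52.5% and 52.1%. Srf, their partner, was at 8.68, 9.2 and 8.46 CPM.

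The same picture was read cell by cell after each cell was thinned at random to 30000 UMIs, which left 362, 717 and 815 cells and left out 11, 157 and 160. At equal depth, 34.5% (29.6 to 39.7, exact binomial), 14.8% (12.3 to 17.6) and 11.8% (9.65 to 14.2) of cells at 0, 5 and 50 ng/ml had at least 1 Mras UMI. Ksr1 was seen in 17.7%, 7.25% and 7.98% of cells. Braf was seen in 35.9% (31.0 to 41.1), 55.9% (52.2 to 59.6) and 57.8% (54.3 to 61.2). The 2 genes that were lower with FGF4 were thus seen in fewer cells and Braf in more. The fibroblast gene Col1a1, which these cells should lack, was seen in 0.276%, 0.418% and 0.368% of cells at the same depth, far below all 3 genes. Without thinning, Mras was seen in 63.8%, 27.2% and 21.5% of cells and Braf in 77.7%, 79.4% and 79.5%, but there the cells of the libraries differed in depth.

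**Figure D5:**
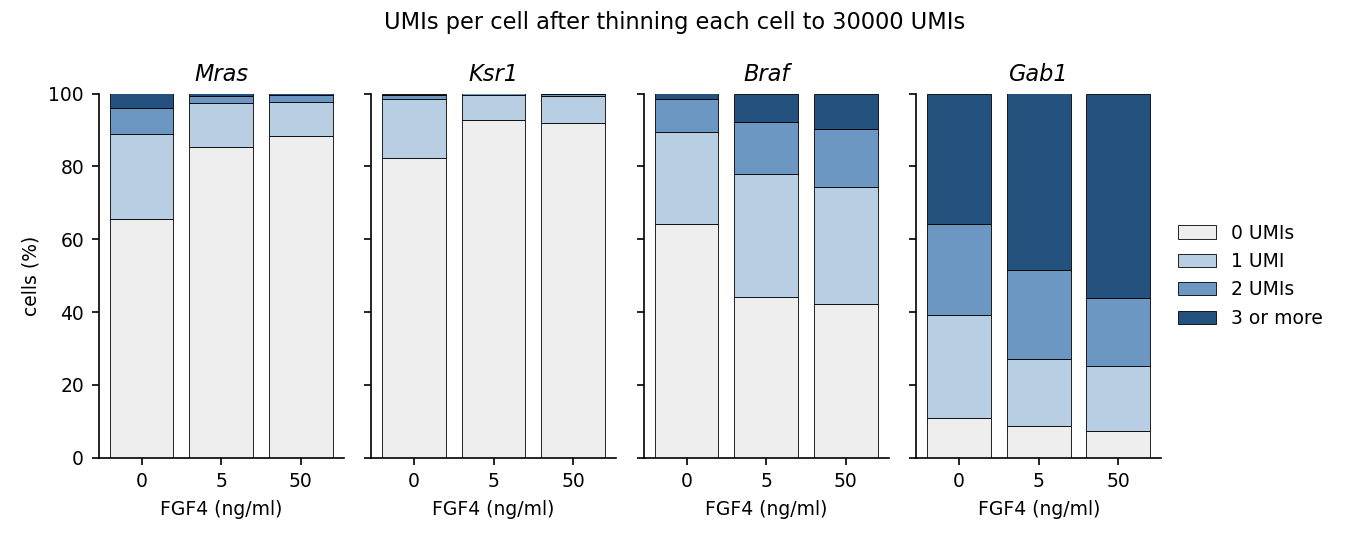
Share of cells (%) with 0, 1, 2 and 3 or more UMIs of Mras, Ksr1, Braf and Gab1 after thinning each cell to 30000 UMIs, by FGF4 dose (362, 717 and 815 cells). The pale part, cells with 0 UMIs, takes 88.2% of the bar for Mras at 50 ng/ml and 65.5% at 0 ng/ml, and it shrinks with FGF4 for Braf and Gab1.

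Few cells held more than 2 UMIs of the lower genes. At 50 ng/ml, 88.2% of thinned cells had 0 Mras UMIs, 9.45% had 1, 1.84% had 2 and 0.491% had 3 or more, and at 0 ng/ml the shares were 65.5%, 23.5%, 7.18% and 3.87%. For Braf, 3 or more UMIs were seen in 1.38%, 7.95% and 9.82% of cells at 0, 5 and 50 ng/ml. The sum over all 35 genes had a median of 30, 31 and 31 UMIs per cell, with the middle 50% of cells between 26 and 35, 26 and 35, and 27 and 35. The coefficient of variation of this sum was 20.4%, 21.4% and 20.8%. A list of 10 genes known to respond to ERK, among them Spry4, Dusp6, Etv4 and Spred2, had medians of 2, 9 and 12 UMIs per cell. It was chosen with earlier results of these data known, so its rise with dose is no independent result. Its genes differed widely, as Etv4 at 1.17, 49.8 and 88.9 CPM and Spred2 at 32.1, 43.1 and 41.5 CPM. Across the cells of a library, the counted sums of the components and of that list had Pearson r of 0.101, 0.124 and 0.080. Both sums come from the same thinned cells. Variance over mean, which is 1 for counting noise alone, was 1.28, 1.40 and 1.35 for the components. For the list it was 1.29, 2.77 and 2.55. Counting noise lowers r, so these values do not measure how closely the levels themselves go together.

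Spread among cells, given as the Fano factor (variance over mean, 1 for random sampling), moved to no one side with FGF4 that held over random draws and choices of cells. It could be read for 18 members between 50 and 0 ng/ml, of which 9 had the higher value at 50 ng/ml (50%, against 51.9% of all genes read). Between 5 and 0 ng/ml the count was 11 of 18 (61.1%, against 53.2%), and between 50 and 5 ng/ml it was 9 of 19 (47.4%, against 47.7%). With another random draw the counts were 8 of 18 (44.4%, against 52.1%) between 50 and 0 ng/ml and 8 of 18 (44.4%, against 52.8%) between 5 and 0 ng/ml. With a filter on cells by mitochondrial share and depth they were 11 of 19 (57.9%, against 49.1%) and 8 of 19 (42.1%, against 51.3%). The median Fano factor of the members was 1.11 at 50 ng/ml and 1.10 at 0 ng/ml. The value of 1.49 for Erf at 0 ng/ml rested on 1 cell with 11 UMIs and was 1.18 without it.

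Other genes of the pathway, from a list of 59 exchange factors, GTPases, scaffolds, phosphatases and effectors, held a ratio between 50 and 0 ng/ml below that of Mras in Rasgef1a and above that of Braf in Rasgrp2. Of these, 41 were read between 50 and 0 ng/ml, 1 of them was higher by at least 1.5-fold and 7 were lower, or 17.1% lower beside 8.89% of all genes. With 20 CPM needed, 1 of 29 was higher and 2 were lower (6.90%), beside 4.5% and 5.96% of all 5709 genes then read (10.5% in either direction), so the larger share of lower genes was not seen among abundant ones. Rasgef1a, Rasgrp1 and Ralgds were read only because they passed 5 CPM without FGF4. Between 5 and 0 ng/ml 2 of 41 were higher and 6 lower, beside 5% and 6.04% of all genes (11% in either direction). Between 50 and 5 ng/ml 0 of 37 were past the line, beside 1.01% of all genes. The gene higher at 50 ng/ml was Rasgrp2, an exchange factor for RAP GTPases that calcium and diacylglycerol activate, at 41.1, 100 and 126 CPM, 3.06-fold higher at 50 than at 0 ng/ml (2.91 to 3.22). Its Fano factor among thinned cells was 1.49, 2.17 and 2.29, at means of 1.19, 2.89 and 3.64 UMIs per cell, and the Fano factor grows with the mean. Its squared coefficient of variation beyond counting noise was 0.408, 0.404 and 0.354. Rasgef1a, a RAS-family exchange factor, was at 7.77, 1.69 and 1.11 CPM, 7.03-fold lower at 50 than at 0 ng/ml (5.55 to 8.97). Rasgrp1, which loads RAS, was at 7.91, 4.56 and 3.27 CPM, 2.42-fold lower at 50 than at 0 ng/ml (2.06 to 2.85). Exchange factors other than SOS thus differed in both directions.

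Iqgap1, a scaffold that binds MEK and ERK, was at 232, 123 and 105 CPM, 2.22-fold lower at 50 than at 0 ng/ml (2.15 to 2.28). On the RAL branch of RAS signalling, the GTPase Ralb was at 34.8, 17.9 and 15.2 CPM and its exchange factor Ralgds at 7.56, 4.39 and 4.08 CPM. They were 2.29-fold and 1.85-fold lower at 50 than at 0 ng/ml. Ets2, an ETS factor phosphorylated by ERK, was at 11.7, 6.82 and 7.01 CPM, 1.67-fold lower at 50 than at 0 ng/ml. Erbin, which binds ERBB2 and can dampen RAF activation, was at 10.3, 7.34 and 6.42 CPM, 1.60-fold lower at 50 than at 0 ng/ml. Lamtor3, the scaffold MP1 that holds MEK1 and ERK1 at late endosomes, was at 13.3, 20.9 and 18.9 CPM and passed 1.5-fold between 5 and 0 ng/ml only, at 1.57-fold higher (1.43 to 1.73). Whether the doses differ in any of these genes beyond the spread between cultures was not tested, since each dose was 1 library.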

How the data were processed

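The deposited files held whole-number UMI counts per gene and cell barcode for 3 10x Genomics 3' libraries, and Cell Ranger 4.0.0 wrote them, per the file headers. The genome build was mm10 per the submitters' processing notes. The sources used here do not give the annotation release, the strand setting or the choice of cell barcodes. All 2222 cells were used, and counts were summed per library and divided by the library total (CPM). Levels carry exact Poisson intervals, ratios conditional binomial intervals and shares Clopper-Pearson intervals, all at 95% and for counting error only. A gene was read where it had 5 CPM in either library compared. A fold difference counted from 1.5. Doublets, called with Scrublet in scanpy 1.11.5, were left in (12, 7 and 26 cells at 0, 5 and 50 ng/ml) and left out as an alternative. TMM factors came from edgeR 4.0.16, with no test. Coordinates came from GENCODE M21 (GRCm38, that is mm10), in which 32235 of 32285 gene IDs matched, and promoters from RefSeq. All 35 members may be named. Those described one by one were those past 1.5-fold in any comparison and, in each comparison, the 3 largest ratios in each direction. Of the other pathway genes, those past 1.5-fold with an interval that excluded 1 were named. The members and lists were chosen with earlier results of these data known, and the cAMP response element was added after the promoter sequences had been read. Scripts were tested on simulated data.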

Additional observations from a re-analysis of the deposited data

How the results depend on the processing

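No paired analysis was possible because each dose was 1 library, and no library could be left out for the same reason. The count of members past 1.5-fold was 3 between 50 and 0 ng/ml, 3 between 5 and 0 ng/ml and 0 between 50 and 5 ng/ml. With the fold limit lowered by 0.25 the counts were 10, 6 and 1, where 33.2%, 26.8% and 4.63% of all genes read were past it. With a 2-fold limit the counts were 3 of 31 (9.68%), 2 of 31 (6.45%) and 0 of 30. Of all genes read, 6.10%, 4.25% and 0.294% were past that limit. Against 0 ng/ml, the members' share was thus above that of all genes at 2-fold and below it at 1.5-fold. With 20 CPM needed in the higher library the counts were 1 between 50 and 0 ng/ml and 1 between 5 and 0 ng/ml, because Mras and Ksr1 were then no longer read (10.5% and 7.70% of all genes). With 3 UMIs needed, Elk3 and Rps6ka4 entered and the count was 5 between 5 and 0 ng/ml (31.0% of all genes). With equal weight to each cell, Cic and Sos1 entered and the count was 5 between 50 and 0 ng/ml (15.2% of all genes). Under the scalings and choices of cells tried, the ratio between 50 and 0 ng/ml kept its direction for Mras (0.24 to 0.25), Ksr1 (0.37 to 0.40) and Braf (1.96 to 2.09). The side of 1 depended on the scaling or the cells for 5 measured members between 50 and 0 ng/ml (Hras, Araf, Lztr1, Rps6ka2 and Srf), for 4 between 5 and 0 ng/ml (Ptpn11, Map2k1, Map2k2 and Lztr1) and for 9 between 50 and 5 ng/ml. Thinning to 7000 UMIs left 3, 3 and 4 members readable for the Fano factor, of which 1 (50 against 0 ng/ml), 0 (5 against 0 ng/ml) and 2 (50 against 5 ng/ml) had the higher value in the library with more FGF4. With doublets left out, the Fano factor of Erf at 0 ng/ml was 1.08. Depth limits Rps6ka4, with 8 to 22 UMIs per library.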
